A study of Mus musculus with 2 samples.

Results

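The 10 genes described here are targets of the transcription factor p53 that single-cell studies often read as its output: Mdm2, Ccng1, Bax, Trp53inp1, Sesn1, Gadd45b, Btg2, Phlda3, Aen and Zmat3. They were found by symbol among the 19059 genes of the deposited matrices, and all 10 were present, each as 1 protein-coding gene. Their unique molecular identifiers (UMIs, each standing for 1 captured probe product) were summed in each library over every marker-defined cell class, neurons, glia and vessel-associated cells alike. The libraries were made from flash-frozen hippocampus of C57BL/6 mice that were 21 months old at the start. The study used mice of both sexes, and the sex of the pooled mice was not stated. One library held 4 pooled mice kept on standard chow (control), and the other held 4 pooled mice fed chow with 0.05% tomatidine, a steroidal alkaloid from tomato plants, for 3 months. Both groups were aged and genetically unmodified, and no young group was analysed here. With 1 library per group no test of the diet was possible, so each difference between the libraries is a difference between 2 pools of mice, and the intervals given cover counting error only.

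The tumour suppressor p53 is held at a low level by the ubiquitin ligase MDM2, which is itself a p53 target, so the pair forms a feedback loop. When DNA is damaged or growth signalling is disturbed, p53 accumulates, binds a bipartite sequence near its targets and raises genes that halt the cell cycle, repair DNA, restrain growth or start apoptosis. In aged brain these genes are followed because persistent p53 activity accompanies cellular senescence, but several of them also answer to other inputs. Btg2 and Gadd45b in particular are induced in neurons by activity, together with immediate early genes.

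The promoters of the targets differed in whether they held the sequence unit that p53 binds. RefSeq promoter sequences (GRCm38.p6, 250 bases before to 50 after each start) were matched for 8 of the 10 genes, and none was matched for Trp53inp1 and Zmat3. A 10-base p53 half-site, searched on both strands by its consensus, was found for 5 of the 8, namely Mdm2, Ccng1, Bax, Sesn1 and Aen. The share over all genes with a promoter was 9.55% of 27025 genes, or 8.36% of their 32851 promoters of the same length. The 8-base CRE (TGACGTCA, also searched on both strands), the element bound by the activity-regulated factor CREB, was found for Btg2 among the 8 genes, for 2.03% of all genes and in 1.79% of all promoters. The CArG box, the element of serum response factor, was found for none of the 8, for 1.81% of all genes and in 1.63% of all promoters. Each motif is its own reverse complement, and the motifs printed do not overlap each other. The matches are letters in a window and not measured binding. They are shown, 5′ to 3′ on the strand of the gene with the motif in capitals, to let a reader compare the matched letters. The genes with a half-site were spread over the roles described below, and Phlda3, Gadd45b and Btg2 had a promoter without one.
Mdm2, chr10:117710925-117710954, minus strand, 186 bases upstream of the start: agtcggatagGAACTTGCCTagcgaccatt
Ccng1, chr11:40755452-40755481, minus strand, 185 bases upstream: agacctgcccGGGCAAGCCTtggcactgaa
Bax, chr7:45467080-45467109, minus strand, 201 bases upstream: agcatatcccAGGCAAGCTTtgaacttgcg
Sesn1, chr10:41887256-41887285, plus strand, 173 bases upstream of a start inside the gene: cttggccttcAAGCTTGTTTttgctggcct
Aen, chr7:78895927-78895956, plus strand, 121 bases upstream of one start and 11 bases past another: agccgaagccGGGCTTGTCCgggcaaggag
Btg2 CRE, chr1:134079304-134079331, minus strand, 166 bases upstream: ttcccaataaTGACGTCAgtgagcgatg

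By the GENCODE annotation of the same build, Mdm2 lies on the minus strand at chr10:117688875-117710758, Ccng1 on the minus strand at chr11:40748552-40755311, Bax on the minus strand at chr7:45461697-45466898 and Trp53inp1 on the plus strand at chr4:11156431-11174379. Sesn1 lies on the plus strand at chr10:41809935-41908424, Gadd45b on the plus strand at chr10:80930073-80932204 and Btg2 on the minus strand at chr1:134075170-134079120. Phlda3 lies on the plus strand at chr1:135766119-135769136, Aen on the plus strand at chr7:78895854-78911209 and Zmat3 on the minus strand at chr3:32334792-32366014.

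The cells fell into 16 named classes. Of 31097 deposited cells, 29617 were kept, of which 15115 were control and 14502 tomatidine cells, and their median depths were 7066 and 7407 UMIs per cell. The 2 libraries shared 292 barcodes. Of 38 clusters, 24 were named from cell type markers and 14 were left unnamed, which held 18.2% of control and 20.8% of tomatidine cells. The share of cells with at least 1 UMI of a Y-linked gene was 69.7% in control and 70.5% in tomatidine. Levels are compared over the 12 classes that had at least 100 cells in each library. These were dentate granule, CA1, and CA2 or CA3 neurons of the hippocampus, deep-layer or subicular neurons, thalamic or other subcortical neurons, interneurons, oligodendrocytes, their precursors (OPC), astrocytes, microglia, endothelial cells and meningeal cells. The dissection therefore reached beyond the hippocampus.

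Some class names rest on mixed evidence, and the mix of cells differed between the libraries. The endothelial cluster raised 17 of 17 endothelial markers and also 15 of 15 mural markers. One of the microglial clusters (cluster 18) raised 17 of 17 microglial and 16 of 18 astrocyte markers. The thalamic or other subcortical class joined cluster 20 with cluster 9, which was led by Pou4f2, Barhl1 and Barhl2 and raised 9 of 16 markers of its class and 4 of 8 of Cajal-Retzius neurons. Cluster 9 had 178 control and 666 tomatidine cells, whereas cluster 20 had 298 and 241. Choroid plexus cells numbered 342 in control and 31 in tomatidine, and their summed markers stood at 265 CPM (UMIs of a gene scaled to a class total of 1000000) in control dentate granule neurons against 69.9 in tomatidine. In the endothelial class choroid plexus markers summed to 2339 CPM in control and 111 in tomatidine, with 0 of 15 higher. Astrocyte markers there summed to 8822 and 6366 CPM, with 0 of 18 higher, beside 15728 and 17501 for endothelial markers. The part of such RNA in the endothelial levels and ratios given below was not tested. In the OPC class the oligodendrocyte markers summed to 16845 CPM in control and 9346 in tomatidine, with 0 of 18 higher. Its own markers summed to 16077 and 17243 CPM. The 10 genes, the wider p53 list and the immediate early genes were left out of the clustering.

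Each of the 10 targets had its own distribution over the classes, and no class stood at the top for all of them. Of the 10 genes, 8 had the same highest class in both libraries. The rank correlation of the 12 class levels between the libraries ran from 0.71 for Ccng1 to 1.0 for Trp53inp1, a description in which both libraries share the probe set and the class definitions. The highest class exceeded the lowest by 1.74-fold for Bax and by 47.8-fold for Phlda3 in control, and by 1.82-fold and 32.5-fold in tomatidine. Levels are CPM with the 95% exact Poisson interval in parentheses, and they are compared between classes for 1 gene at a time, since probe counts do not put different genes on a common scale. A level is a share of the RNA of its class, so the number of cells in the class does not enter it. Only for Sesn1 and Phlda3 was the interval of the highest class apart from that of the next class in both libraries. For Mdm2, Bax, Trp53inp1, Gadd45b, Aen and Zmat3 these intervals overlapped in both, so their highest class is not separated from the next.

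**Figure D1:**
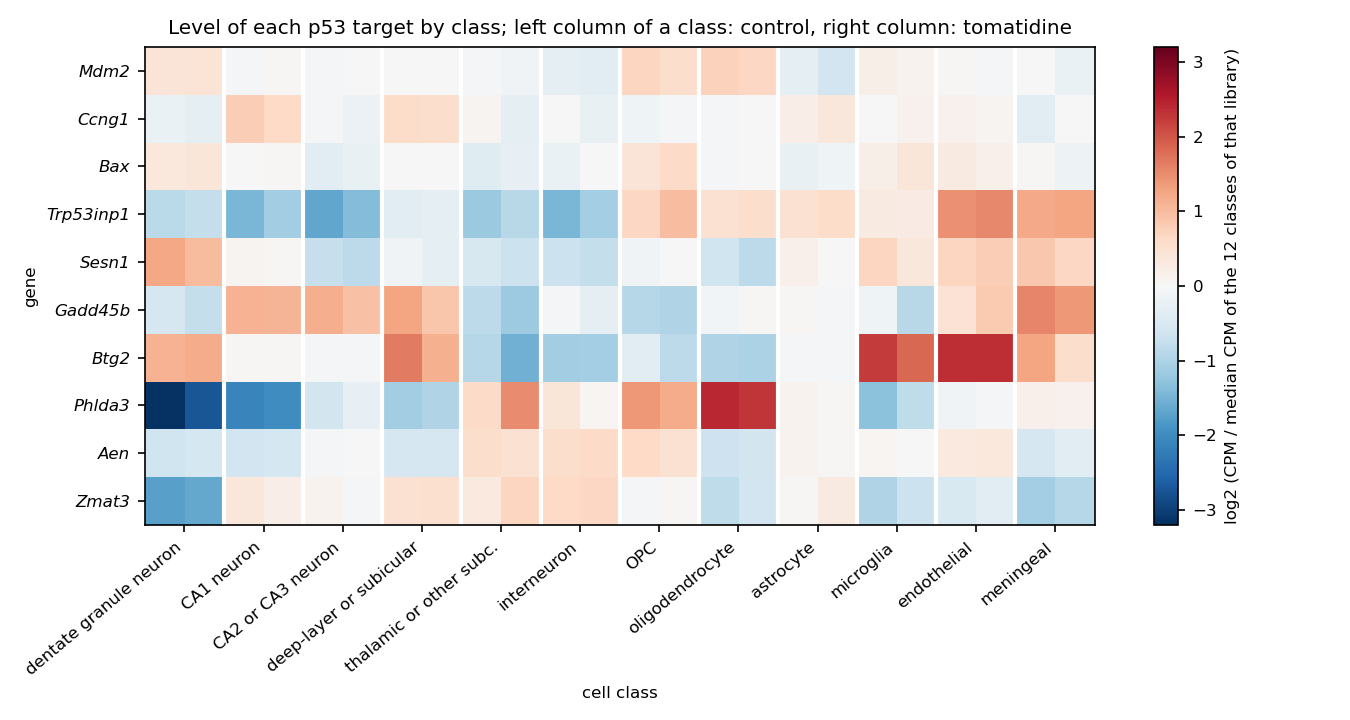
Level of each p53 target (rows) in 12 cell classes (columns, control left and tomatidine right in each class) as the log2 of its CPM over the median CPM of the 12 classes in that library. Phlda3, Btg2, Trp53inp1 and Zmat3 have the deepest colours, while Bax and Mdm2 stay close to their medians, with highest over lowest ratios of 1.74 and 2.10 in control.

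Mdm2, the feedback ligase, was highest in the oligodendrocyte lineage and lowest in astrocytes in both libraries. Oligodendrocytes had 119 CPM (114 to 124) in control and 113 (108.0 to 119) in tomatidine, and OPC had 114 (102 to 127) and 106 (92.7 to 120.2). The intervals of these neighbours overlapped in both libraries, so their order is not separated. Dentate granule neurons followed with 94.4 CPM (91.6 to 97.2) and 97.1 (93.8 to 100.4). Astrocytes had 56.6 CPM (52.4 to 61.0) in control and 47.3 (43.8 to 51.0) in tomatidine, and interneurons 57.1 and 56.4. The intervals of astrocytes and interneurons overlapped in control and not in tomatidine. The spread of Mdm2 from highest to lowest was 2.10-fold in control and 2.40-fold in tomatidine.

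The 3 targets that restrain proliferation were highest in 3 different classes. Ccng1, cyclin G1, which recruits a phosphatase to MDM2, was highest in CA1 neurons, with 114 CPM (109.6 to 119) in control and 108 (102 to 114) in tomatidine. Deep-layer or subicular neurons came next with 99.4 (94.1 to 105) and 102 (96.1 to 108), and dentate granule neurons were near the bottom with 57.4 (55.2 to 59.6) and 57.1 (54.6 to 59.7). CA1 and dentate granule neurons, both principal cells of the hippocampus, thus stood at opposite ends for this gene in tomatidine. In control meningeal cells were lower still, with 52.0 CPM (41.1 to 64.8), an interval that overlapped that of dentate granule neurons.

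Btg2, an antiproliferative transcriptional cofactor, was highest in endothelial cells, with 125 CPM (113 to 137) in control and 142 (130.2 to 154) in tomatidine. Microglia had 115 (104 to 127) and 99.0 (87.8 to 111), which overlapped the endothelial interval in control and not in tomatidine. The neuron classes were spread out. Deep-layer or subicular neurons had 77.4 and 60.8 CPM, dentate granule neurons 52.3 and 62.4, CA1 neurons 24.95 and 28.5, and interneurons 11.3 and 12.9. The lowest class was interneurons in control and thalamic or other subcortical neurons in tomatidine, with 9.57 CPM, and the highest class exceeded the lowest by 11.1-fold and 14.8-fold.

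Gadd45b, a stress sensor of the GADD45 family that binds cell cycle kinases and takes part in DNA demethylation, was highest in meningeal cells. They had 54.6 CPM (43.5 to 67.7) in control and 50.6 (42.2 to 60.3) in tomatidine. They were followed in both libraries by 3 classes of excitatory neurons, with 44.5 and 35.6 CPM in deep-layer or subicular neurons, 41.6 and 37.3 in CA2 or CA3 neurons and 39.998 and 40.9 in CA1 neurons. Dentate granule neurons were well below these neurons, with 12.7 (11.7 to 13.8) and 11.4 (10.3 to 12.6). Gadd45b and Btg2 therefore ordered the dentate granule and CA1 neurons in opposite ways, with Btg2 higher in dentate and Gadd45b higher in CA1.

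Among the targets linked to cell death, Bax was the most even and Phlda3 the least even of the 10. Bax, the pore-forming protein of the mitochondrial death pathway, was highest in OPC, with 125 CPM (113 to 139) in control and 139 (124 to 156) in tomatidine. Dentate granule neurons had 119 in both libraries (116 to 122 and 115 to 123). The lowest class was thalamic or other subcortical neurons, with 72.1 (68.2 to 76.1) and 76.5 (73.3 to 79.8). All 12 classes carried Bax within 1.82-fold of each other.

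Trp53inp1, a nuclear cofactor of p53 that also takes part in autophagy, separated neurons from the other classes. Endothelial cells had 73.8 CPM (65.1 to 83.4) in control and 76.3 (67.9 to 85.5) in tomatidine, and meningeal cells 61.2 and 63.1. OPC, astrocytes, oligodendrocytes and microglia lay between 31.3 and 52.0 over both libraries. All 6 neuron classes were below them, from 20.7 and 20.9 CPM in deep-layer or subicular neurons down to 8.38 (6.44 to 10.7) and 9.92 (7.67 to 12.6) in CA2 or CA3 neurons. The intervals of microglia and of deep-layer or subicular neurons, the neighbours across this gap, did not overlap in either library.

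Aen, a nuclease that digests DNA during apoptosis, had a low and fairly even level. OPC had 39.9 CPM (33.0 to 47.9) in control and 33.5 (26.3 to 41.999) in tomatidine, interneurons 38.1 and 36.5, and thalamic or other subcortical neurons 38.2 and 33.2. These 3 classes held the top in both libraries with overlapping intervals, and the order among them changed. Oligodendrocytes were lowest with 16.3 (14.5 to 18.2) and 15.8 (13.8 to 18.03). Their interval overlapped that of the next class, which was dentate granule neurons in control and CA1 neurons in tomatidine. Aen thus placed oligodendrocytes among its lowest classes and Mdm2 placed them among its highest.

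Phlda3, a pleckstrin homology domain protein that competes with AKT for membrane lipids, was the most class-restricted target. Oligodendrocytes had 157 CPM (151 to 163) in control and 165 (158.5 to 172) in tomatidine, and OPC had 76.8 (67.1 to 87.5) and 77.8 (66.6 to 90.3). At the other end dentate granule neurons had 3.28 (2.78 to 3.85) and 5.07 (4.35 to 5.89), and CA1 neurons 6.81 and 8.64. The share of cells with at least 1 Phlda3 UMI was 49.8% of control and 48.9% of tomatidine oligodendrocytes, at medians of 5291.5 and 4844 UMIs per cell. In dentate granule neurons it was 5.33% and 7.38% although their medians were 14080 and 12714. Cells with at least 1500 UMIs were also thinned to 1500. This left out 58 control and 68 tomatidine oligodendrocytes, and 1 and 4 dentate granule neurons. The expected shares were then 18.9% and 19.2% in oligodendrocytes and 0.545% and 0.924% in dentate granule neurons. The order of these classes was thus the same as by CPM. Free RNA was not measured apart from cells, and its part in the dentate value was not tested.

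Sesn1, a sestrin that holds back mTOR signalling and oxidative stress, had the reverse pattern. Dentate granule neurons had 190.1 CPM (186 to 194) in control and 176 (172 to 181) in tomatidine, above every other class without overlap of intervals. Meningeal cells (145 and 139), endothelial cells (129 and 149) and microglia (128 and 113) came next. The lowest classes were CA2 or CA3 neurons with 47.7 (42.9 to 52.9) and 49.0 (43.8 to 54.6), interneurons with 50.2 and 51.1, and oligodendrocytes with 51.2 and 48.9. After thinning to 1500 UMIs, 24.9% and 23.3% of dentate granule neurons had a Sesn1 UMI, against 6.26% and 7.28% of CA2 or CA3 neurons.

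Zmat3, a zinc finger RNA-binding protein that acts on splicing, was high in 3 neuron classes and lowest in dentate granule neurons. Interneurons had 87.3 CPM (82.4 to 92.5) in control and 81.2 (76.2 to 86.4) in tomatidine, and thalamic or other subcortical neurons 69.2 and 82.4. Deep-layer or subicular neurons had 78.9 and 73.0. The other neuron classes did not stand above the glia in both libraries: CA1 neurons had 72.4 and 58.6 and CA2 or CA3 neurons 60.6 and 49.7, beside 57.6 and 62.2 in astrocytes and 54.3 and 52.0 in OPC. Dentate granule neurons were lowest of the 12 classes with 16.7 (15.6 to 17.96) and 16.5 (15.1 to 17.9), below microglia with 28.8 and 31.6. Dentate granule neurons were thus highest for Sesn1, lowest for Phlda3 and Zmat3 and third-ranked for Mdm2 in both libraries.

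**Figure D2:**
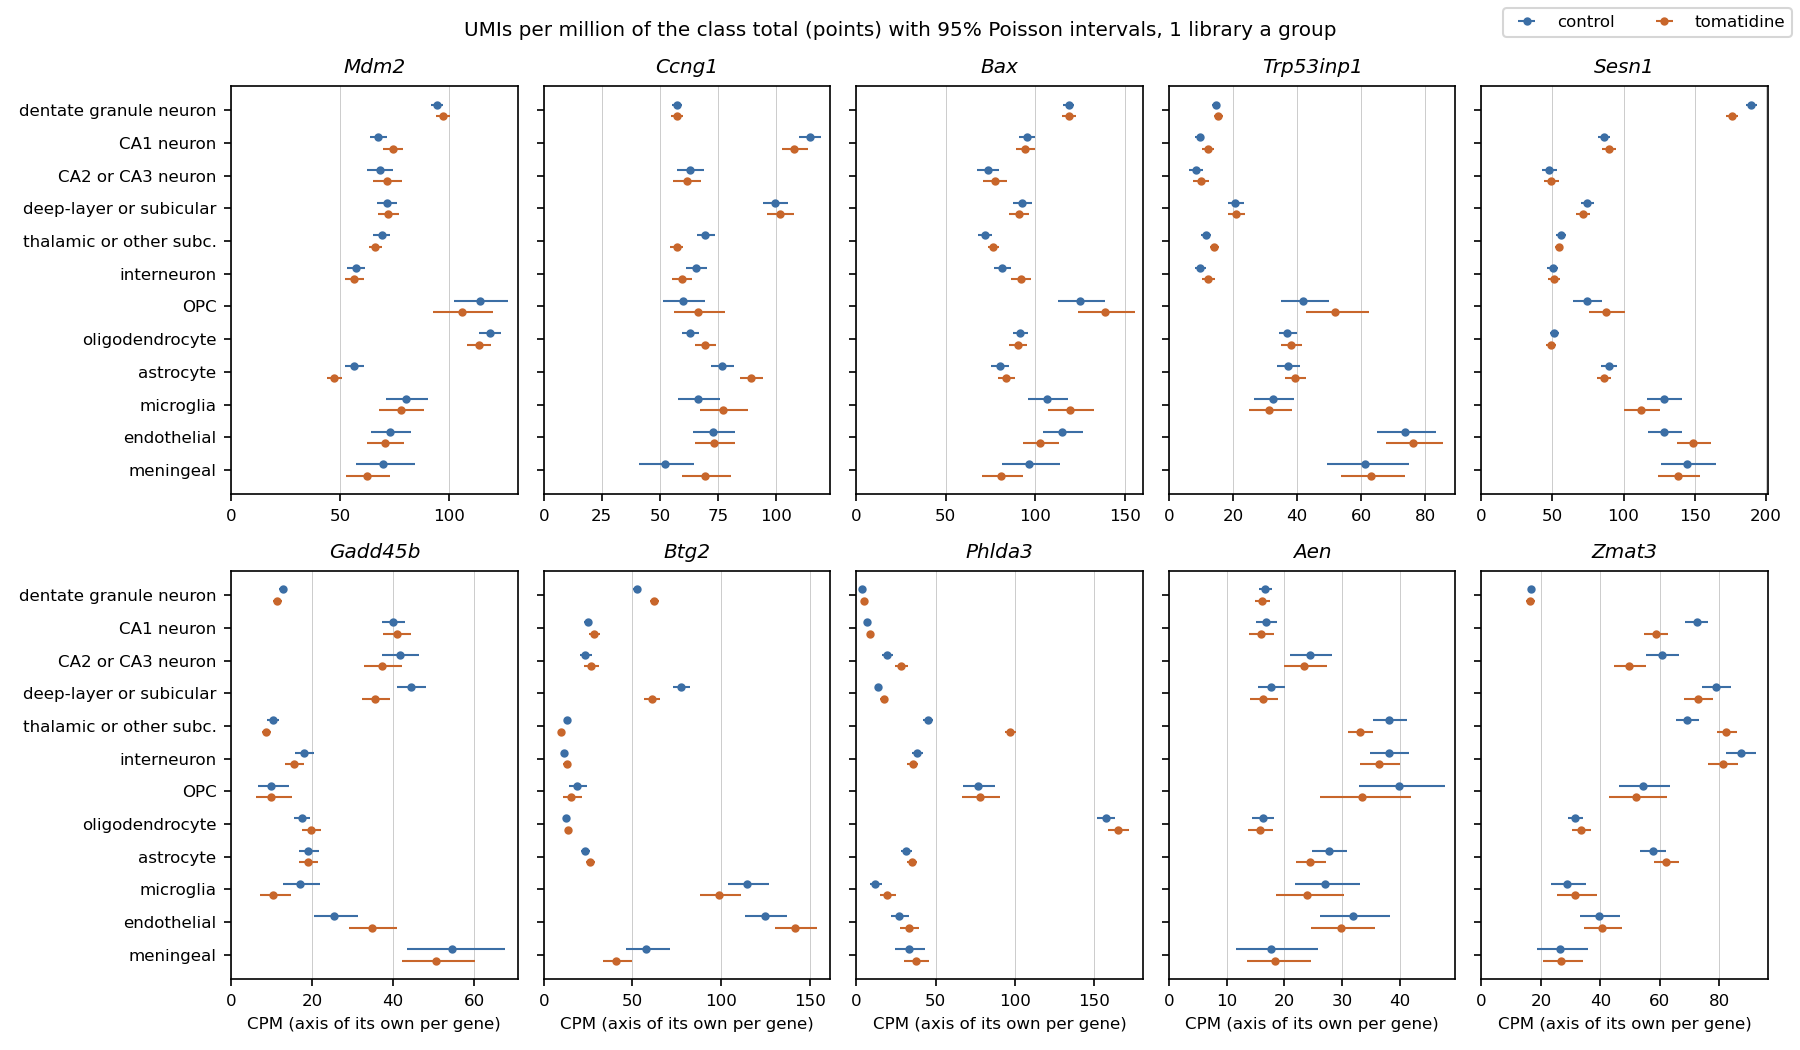
CPM of each target in 12 cell classes, control in blue and tomatidine in orange, with 95% Poisson intervals and an axis of its own for each gene. The rank correlation of the class levels between the libraries ran from 0.71 for Ccng1 to 1.0 for Trp53inp1. The widest gap between the colours is Phlda3 in thalamic or other subcortical neurons, with 44.9 CPM in control and 97.0 in tomatidine.

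Over the 12 classes the targets did not vary together. The closest positive pair was Sesn1 and Btg2, with Pearson's r of 0.75 in control and 0.74 in tomatidine over log2 levels. Sesn1 and Zmat3 ran against each other, with r of -0.73 and -0.68, and so did Btg2 and Phlda3, with -0.53 and -0.59. These are descriptions over 12 classes whose points share a library and a depth. Among genes outside the 10, those with the most similar profile over the 24 class levels of both libraries were Tbc1d15 (r = 0.92) for Mdm2, Ankrd63 (0.84) for Ccng1, Rsbn1l (0.86) for Btg2 and Npr3 (0.86) for Gadd45b. They were Xrn2 (0.90) for Bax, Hsd3b7 (0.95) for Trp53inp1, Eps8 (0.85) for Aen and Sema6a (0.93) for Phlda3. For Sesn1 it was Diaph1 (0.90) and for Zmat3 it was Ppp2r2b (0.94). Each r is the highest among 13229 genes compared, so these values were selected to be high. The 24 levels are 12 classes seen in both libraries.

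The smaller classes extended these ranges on few UMIs. Ependymal cells, with 35 control and 15 tomatidine cells, had 192 and 201 CPM of Mdm2, on 100 and 47 UMIs. The T cell class, with 54 and 34 cells, had 302 and 160.1 CPM of Btg2 on 48 and 24 UMIs, and 176 and 60.0 CPM of Trp53inp1 on 28 and 9 UMIs. Cluster 32, left unnamed and led by the border macrophage genes Mrc1 and Cd163, had 218 and 239 CPM of Sesn1, on 53 and 62 UMIs. Cluster 22, unnamed and led by Ddit4l, Dsc3 and Tshz2, had 174 and 182 CPM of Ccng1, on 845 and 1147 UMIs.

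The diet comparison asked whether the targets as a group stood lower or higher in the tomatidine library in any class, and most of them were close to their control level. A gene was counted as past the fold at an absolute log2 ratio of at least 0.5 (1.41-fold) with at least 100 UMIs over both libraries. Of 120 pairs of target and class, 3 were past the fold, all 3 were higher in tomatidine, and all 3 were Phlda3. Some of the pairs were under the minimum of UMIs and could not be counted. They were Aen in meningeal cells, Btg2 and Gadd45b in OPC, and Gadd45b and Phlda3 in microglia. Over all kept cells 1 of the 10 targets was past the fold, again Phlda3, where 6.53% of the 14629 genes tested were. The median log2 ratio of the 10 was -0.02 beside 0.03 for all genes, with 4 targets above 0 and 6 below.

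By class, 1 of 10 targets was past the fold in dentate granule neurons, where 1.86% of all genes were, 1 of 10 in CA2 or CA3 neurons (3.98%) and 1 of 10 in thalamic or other subcortical neurons (16.9%). In the other 9 classes no target was past it. The share of all genes there was 7.44% in CA1 neurons, 3.45% in deep-layer or subicular neurons, 3.11% in interneurons, 5.63% in OPC, 3.01% in oligodendrocytes, 3.21% in astrocytes, 5.66% in microglia, 5.92% in endothelial cells and 7.19% in meningeal cells. At such shares a count of 0 or 1 among at most 10 genes over the minimum does not set the targets apart from the other genes of a class. The median log2 ratio of the targets over the minimum lay between -0.06 in meningeal cells and 0.09 in OPC.

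**Figure D3:**
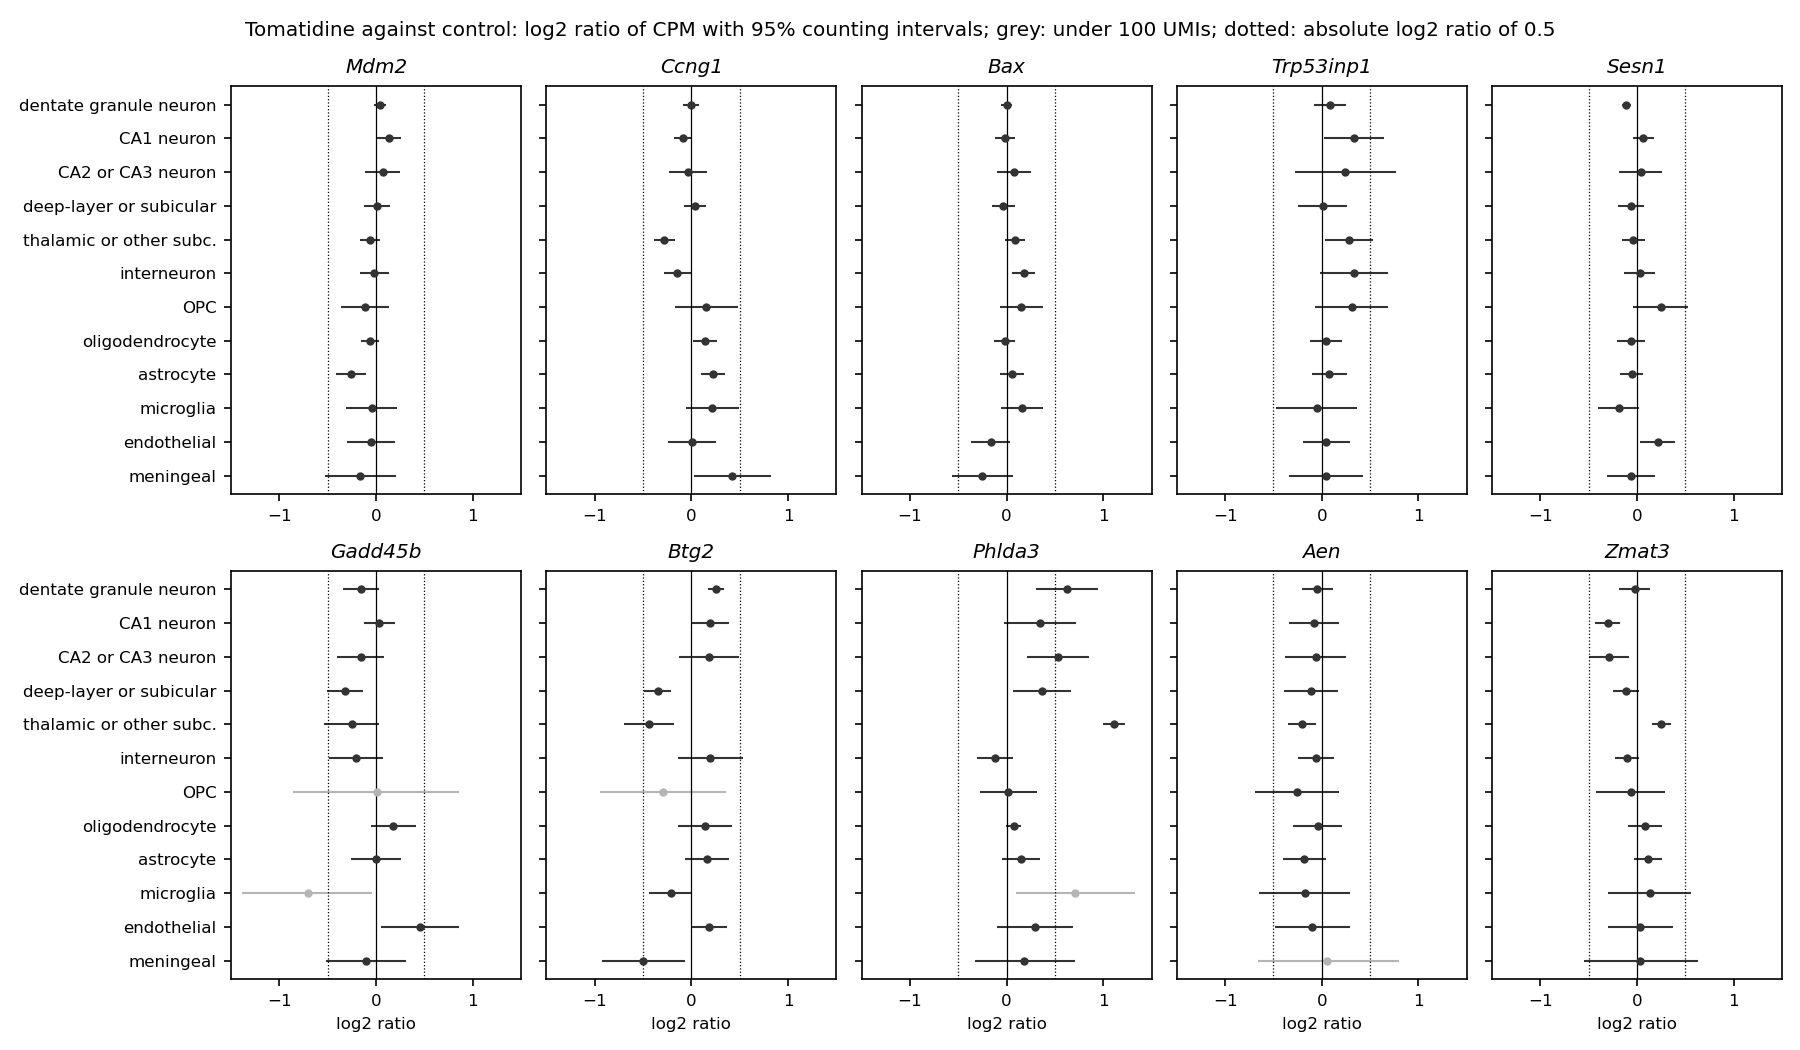
Log2 ratio of CPM, tomatidine over control, for each target in 12 cell classes, with 95% counting intervals, grey where both libraries together had under 100 UMIs and dotted lines at an absolute log2 ratio of 0.5. Black points beyond the dotted lines occur for Phlda3 in dentate granule, CA2 or CA3, and thalamic or other subcortical neurons, with log2 ratios of 0.63, 0.53 and 1.11.

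Phlda3 was the target with the widest gap between the libraries, and the gap in one class went with its mix of clusters. In thalamic or other subcortical neurons it had 805 control and 2749 tomatidine UMIs, or 44.9 and 97.0 CPM, a log2 ratio of 1.11 (0.999 to 1.23). Within cluster 9 of this class it had 102 and 126 CPM, a log2 ratio of 0.30 (0.17 to 0.43), and within cluster 20 it had 19.01 and 23.3 CPM, a log2 ratio of 0.30 (0.01 to 0.58). Both clusters were therefore under the fold on their own, and the cluster with the higher Phlda3 level made up 178 of 476 control cells and 666 of 907 tomatidine cells. With both clusters weighted to the same mix in each library the log2 ratio was 0.30. The summed thalamic or other subcortical markers of the class stood at 5369 CPM in control and 3232 in tomatidine, with 5 of 16 higher, the oligodendrocyte markers in it at 3225 and 3701, with 15 of 18 higher, and the astrocyte markers at 1022 and 1336, with 17 of 18 higher.

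In dentate granule neurons Phlda3 had 153 and 174 UMIs, or 3.28 and 5.07 CPM, a log2 ratio of 0.63 (0.31 to 0.95). Both dentate clusters showed the direction, with 4.31 and 6.40 CPM in cluster 0, a log2 ratio of 0.57 (0.16 to 0.98), and 2.31 and 3.81 in cluster 4, a log2 ratio of 0.72 (0.19 to 1.27). This is the lowest Phlda3 level of the 12 classes, and the log2 ratio was 0.45 in cells chosen by a marker gate instead of by cluster. The oligodendrocyte markers in the class summed to 857 CPM in control and 829 in tomatidine, with 6 of 18 higher, and the thalamic or other subcortical markers to 242 and 264, with 9 of 16 higher. Astrocyte markers summed to 840 and 962 CPM, with 17 of 18 higher, interneuron markers to 503 and 544, with 16 of 20 higher, and mural markers to 15.97 and 22.8, with 14 of 15 higher. Astrocytes and interneurons had more Phlda3 than dentate granule neurons, at 31.5 and 38.5 CPM in control. The part of RNA from such cells in the Phlda3 value was not tested.

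In CA2 or CA3 neurons Phlda3 had 146 and 187 UMIs, or 19.4 and 28.1 CPM, a log2 ratio of 0.53 (0.21 to 0.86). This value passed the fold narrowly, and as a mean over cells, in which each cell counts alike whatever its depth, the log2 ratio was 0.05. Interneuron markers in the class summed to 287 CPM in control and 483 in tomatidine, with 18 of 20 higher, astrocyte markers to 1580.2 and 1969, with 17 of 18 higher, and oligodendrocyte markers to 994 and 1117, with 15 of 18 higher. All 3 of these cell types had more Phlda3 than CA2 or CA3 neurons in both libraries, and their part in the value was not tested. In oligodendrocytes themselves, where Phlda3 was highest, the log2 ratio was 0.07 in cluster 1 (177.8 and 186 CPM) and 0.00 in cluster 3 (116.7 and 116.9 CPM).

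Over all kept cells Phlda3 had 7620 and 10526 UMIs, or 36.9 and 52.6 CPM, a log2 ratio of 0.51 (0.47 to 0.55). It was 0.17 with the clusters weighted to the same mix, 0.33 without clusters 9 and 18, and 0.05 under the stricter set of thresholds in the Methods, which leaves out cells with over 6000 genes. Of 34 clusters with at least 100 cells in all and 20 in each library, Phlda3 was higher in tomatidine in 23 and lower in 11, with a median log2 ratio of 0.22 and a range from -1.07 to 1.16. The unnamed cluster 15, led by Gata3 and Sox14, was another cluster of high Phlda3 level that had more tomatidine than control cells, 509 against 180, with 131 and 109 CPM.

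**Figure D4:**
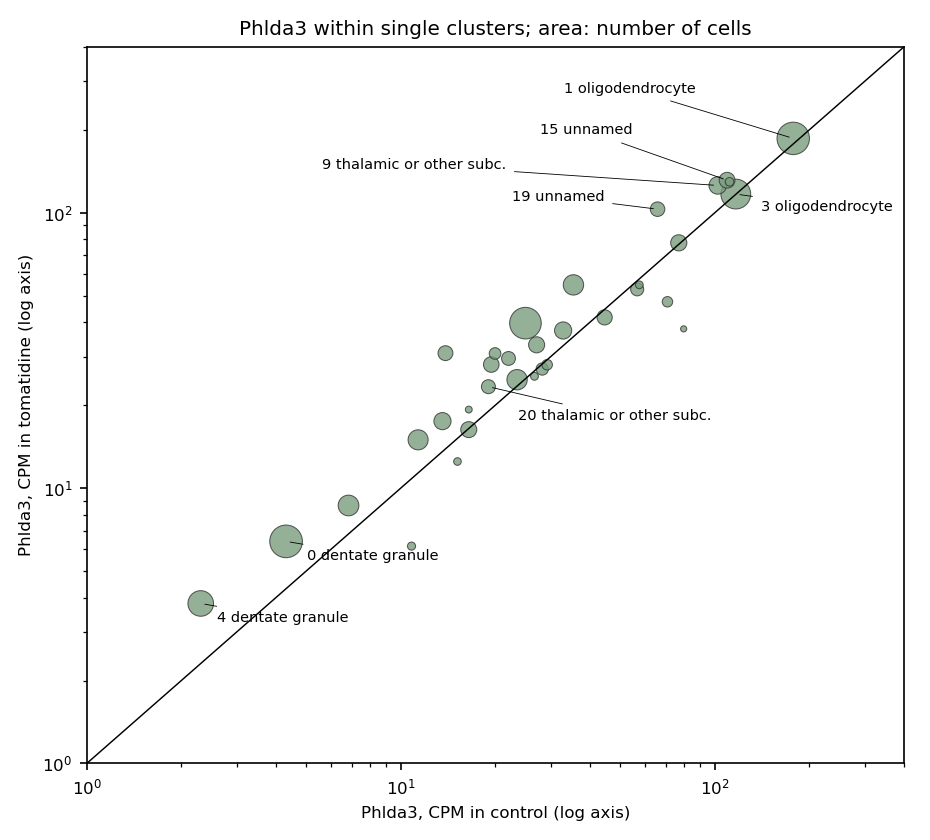
CPM of Phlda3 in the control library (horizontal) and the tomatidine library (vertical) for 34 clusters, on log axes, with the area of a point for its number of cells and the line of equality drawn. Of the points 23 lie above the line and 11 below, and clusters 9 and 20, which form 1 class, lie far apart at 102 and 19.01 CPM in control.

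The other 9 targets had smaller ratios. Nearest to the fold from below were Btg2 in meningeal cells, with 57.9 and 41.0 CPM and a log2 ratio of -0.4985, just inside the threshold (88 and 102 UMIs, interval -0.92 to -0.07), Gadd45b in endothelial cells, with 25.4 and 34.7 CPM and a log2 ratio of 0.45 (0.05 to 0.85), Btg2 in thalamic or other subcortical neurons with -0.43, and Ccng1 in meningeal cells with 0.42. In microglia 2 targets had larger ratios on too few UMIs. Phlda3 had a log2 ratio of 0.71 on 40 and 56 UMIs, and Gadd45b had -0.70 on 57 and 30 UMIs.

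Mdm2 in astrocytes had 680 and 681 UMIs, or 56.6 and 47.3 CPM, a log2 ratio of -0.26 (-0.41 to -0.10). Oligodendrocyte markers in the astrocyte class summed to 8334 CPM in control and 6288 in tomatidine, with 2 of 18 higher. Oligodendrocytes had more Mdm2 than astrocytes in both libraries, and their part in the Mdm2 value was not tested. Ccng1 in astrocytes ran the other way, with 76.6 and 89.4 CPM and a log2 ratio of 0.22 (0.10 to 0.35). The ratios of the feedback ligase and cyclin G1 thus differed in direction in this class. Ccng1 was lower in thalamic or other subcortical neurons, with a log2 ratio of -0.28 (-0.39 to -0.17), and within cluster 9 and cluster 20 its log2 ratios were 0.00 and -0.05. Zmat3 was lower in tomatidine CA1 neurons, with 72.4 and 58.6 CPM and a log2 ratio of -0.30 (-0.43 to -0.18), and in CA2 or CA3 neurons, with a log2 ratio of -0.29 (-0.49 to -0.08). Sesn1 in dentate granule neurons had 8855 and 6043 UMIs and a log2 ratio of -0.11 (-0.16 to -0.06). Trp53inp1, Bax and Aen were within the fold in all 12 classes.

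Btg2 and Gadd45b, the 2 targets that neurons also induce with activity, were lower in tomatidine in deep-layer or subicular neurons. Btg2 there had 1038 and 702 UMIs, or 77.4 and 60.8 CPM, a log2 ratio of -0.35 (-0.49 to -0.21). Gadd45b had 597 and 411 UMIs, or 44.5 and 35.6 CPM, a log2 ratio of -0.32 (-0.51 to -0.14). The 17 immediate early genes in the same cells summed to 3485 CPM in control and 2563 in tomatidine, with 6 past the fold lower and 0 higher, where 3.45% of all genes in the class were past it in either direction (133 lower and 242 higher of 10882). Among them Fos stood at 138 and 70.1 CPM, Egr1 at 1089 and 807, and Junb at 230 and 142. The markers of several cell types moved in the same class. Its own markers summed to 2710 CPM in control and 2292 in tomatidine, with 5 of 14 higher, while oligodendrocyte markers stood at 2534 and 3181 (17 of 18 higher), astrocyte markers at 1695 and 1831 (17 of 18), microglial markers at 258 and 339 (16 of 17) and endothelial markers at 44.0 and 79.5 (17 of 17). Their part in the Btg2 and Gadd45b values was not tested.

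In dentate granule neurons Btg2 differed in direction from Fos, Egr1 and Junb but not from Fosb, another of the immediate early genes. Btg2 had 52.3 and 62.4 CPM, a log2 ratio of 0.26 (0.17 to 0.34), while Fos had a log2 ratio of -0.52, Egr1 -0.20 and Junb -0.18. Fosb had 8.48 and 11.0 CPM, a log2 ratio of 0.37 (0.17 to 0.58). In thalamic or other subcortical neurons Btg2 (-0.43) and Fos (59.0 and 31.4 CPM) were both lower, while Fosb was higher (0.58, on 41 and 97 UMIs). Within cluster 9 of this class the log2 ratio of Btg2 was -0.74 (-1.13 to -0.34). Within cluster 20 it was -0.001 (-0.38 to 0.37). Over all kept cells 14 of the 17 immediate early genes were below 0, with a median log2 ratio of -0.27, beside -0.07 for Btg2 and -0.14 for Gadd45b.

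In 4 classes of excitatory neurons the cells with most Btg2 or Gadd45b UMIs also held more immediate early RNA, while the share of the signal they carried differed by class. In CA1 neurons the 1% of cells with most Btg2 UMIs, 6 cells in each library, held 27.9% of the Btg2 UMIs in control and 26.6% in tomatidine. The summed CPM of the immediate early genes in these cells was 3.01-fold that of the other CA1 neurons in control and 4.02-fold in tomatidine. In CA2 or CA3 neurons the top 1% held 35.0% and 43.8% of the Btg2 UMIs in 4 and 3 cells, with immediate early genes at 3.15-fold and 5.70-fold. In dentate granule neurons the shares were 13.8% and 12.2%, with 3.26-fold and 2.47-fold, and in deep-layer or subicular neurons 14.1% and 19.5%, with 4.42-fold and 3.98-fold.

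For Gadd45b the share held by few cells was high in some of these classes. Its top 1% of CA2 or CA3 neurons held 24.3% and 25.4% of its UMIs, with immediate early genes at 4.16-fold and 3.94-fold, and in dentate granule neurons 22.6% and 21.9%, with 2.73-fold and 3.73-fold. In CA1 neurons it held 8.78% and 14.5%, close to the shares for Aen given next, with 1.94-fold and 3.10-fold, and in deep-layer or subicular neurons 10.2% and 10.9%, with 3.04-fold and 2.88-fold. The top 1% of CA1 neurons by Aen held 8.10% and 13.2% of the Aen UMIs with immediate early genes at 1.21-fold and 0.589-fold, and by Bax 3.90% and 5.80% with 0.995-fold and 1.003-fold. For the other 8 targets in the 4 classes of both libraries the folds ran from 0.240 to 1.76, apart from the 3 top CA2 or CA3 neurons of the tomatidine library by Phlda3 (3.32-fold) and by Zmat3 (3.02-fold), which were above some of the Btg2 and Gadd45b values. The cells were ranked by UMIs rather than by CPM, so they also included deep cells, and the immediate early values are scaled to the cells' own UMIs. Outside the 4 classes the fold for Btg2 ran from 1.10 in tomatidine oligodendrocytes to 5.27 in tomatidine meningeal cells. For Gadd45b it ran from 0.450 in control astrocytes to 4.57 in control meningeal cells. The higher immediate early RNA was therefore not particular to these excitatory neurons.

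**Figure D5:**
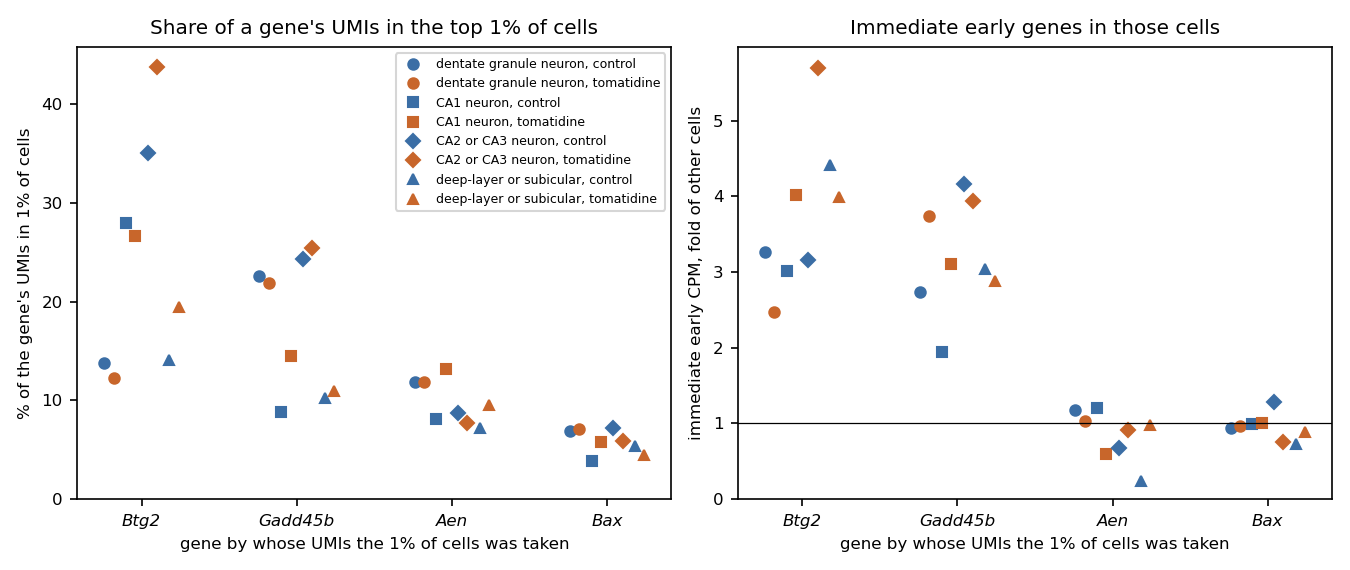
Left, percent of a gene's UMIs held by the 1% of cells with most of them in 4 excitatory classes of each library (control blue, tomatidine orange); right, summed CPM of 17 immediate early genes in those cells as a fold of the other cells of the class, with a line at 1. For Btg2 and Gadd45b the right-hand values lie between 1.94 and 5.70, and for Aen and Bax between 0.240 and 1.29.

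The wider p53 list, 40 further genes of the pathway of which 39 were in the files, showed no common direction. Over all kept cells 21 were above 0 and 18 below, with a median log2 ratio of 0.02 beside 0.03 for all genes. One of the 39 was past the fold, where 6.53% of all genes were. It was the receptor gene Eda2r, with 295 and 193 UMIs and a log2 ratio of -0.57 (-0.84 to -0.30). Trp53, which encodes p53 itself, was highest in microglia, with 85.0 and 74.0 CPM, and had a log2 ratio of -0.05 over all kept cells and was under the fold in each of the 12 classes. Mdm4, the partner of Mdm2 in restraining p53, was highest in microglia (95.4 and 94.5 CPM) and lowest in astrocytes (48.1 and 45.7). Mdm2 also had its lowest level in astrocytes, where its control interval overlapped that of interneurons.

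Cdkn1a, which encodes the cell cycle inhibitor p21, was highest in endothelial cells among the 12 classes. They had 113 CPM (102 to 125) in control and 86.6 in tomatidine, while CA1 neurons had 2.52 and 2.86. Its log2 ratio was -0.38 in endothelial cells and -0.21 over all kept cells, and it was past the fold lower in interneurons (-0.73), microglia (-0.63) and oligodendrocytes (-0.51). These 3 classes had 155 and 85, 85 and 47, and 167 and 87 Cdkn1a UMIs. The 1% of cells with most of them held 43.9% and 27.1%, 60.0% and 46.8%, and 40.1% and 55.2%. The shares of cells with a Cdkn1a UMI were 11.5% and 8.25%, 4.38% and 4.09%, and 4.29% and 2.66%. None of the 10 targets was past the fold lower in those classes, where Gadd45b in microglia had too few UMIs to be counted.

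The genes of the list past the fold differed by class, and all of them are named. They were 3 of 29 over the minimum in CA1 neurons (7.44% of all genes), 2 of 29 in CA2 or CA3 neurons (3.98%), 2 of 23 in OPC (5.63%), 1 of 32 in astrocytes (3.21%), 1 of 32 in endothelial cells (5.92%) and 3 of 30 in interneurons (3.11%). They were 2 of 23 in meningeal cells (7.19%), 4 of 27 in microglia (5.66%), 2 of 31 in oligodendrocytes (3.01%) and 2 of 32 in thalamic or other subcortical neurons (16.9%). Cd82, a tetraspanin, was lower in 4 classes, with 152 and 58.3 CPM in OPC (log2 ratio -1.38) and log2 ratios of -0.98 in CA1 neurons and -0.53 in astrocytes and meningeal cells. Oligodendrocyte markers in the OPC class stood at 16845 CPM in control and 9346 in tomatidine, with 0 of 18 higher. Their part in the Cd82 value was not tested. Ddb2, a damage sensor of nucleotide excision repair, was higher in OPC (0.83), microglia (0.83) and CA1 neurons (0.56). Ddit4, another restraint on mTOR, was lower in microglia, with 102 and 53.8 CPM, and in oligodendrocytes, with 322 and 225 CPM. Gadd45g was lower in CA2 or CA3 neurons (-0.64) and in thalamic or other subcortical neurons (-0.82) and higher in microglia (0.71). Trp53i11 was lower in interneurons, with 184 and 95.9 CPM, and higher in CA1 neurons (0.57).

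The other genes were past the fold in 1 class each. Pmaip1, which encodes the apoptosis factor Noxa, was lower in endothelial cells (-0.83), and the repair gene Xpc in meningeal cells (-0.75). The DNA polymerase gene Polk was higher in interneurons (0.76) and the kinase gene Plk3 in CA2 or CA3 neurons (0.51, on 113 UMIs, interval -0.05 to 1.08). Zfp365 was lower in thalamic or other subcortical neurons (-0.51). None of 32 was past the fold in dentate granule neurons (1.86% of all genes) and none of 31 in deep-layer or subicular neurons (3.45%).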

How the data were processed

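The authors deposited 1 filtered matrix of counts per library, whose entries are unnormalized whole UMIs per gene and cell. Fixed cells were hybridised with the probes of a Chromium Fixed RNA Profiling kit, so that only genes with probes are measured and counts reflect probe products. The submitters' processing notes name Cell Ranger 8.0.0 and mm10, and the matrix header names cellranger 7.1.0. The deposited totals were 279525565 and 259059908 UMIs in 15912 and 15185 cells. Every column belonged to a labelled library. DNA positions come from GENCODE vM21 and RefSeq tables of the same build.

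Following the study's Methods, a cell needed 500 UMIs, over 250 genes, a complexity (log10 genes over log10 UMIs) above 0.8 and a mitochondrial share under 20%. Scrublet (scanpy 1.11.5) called 0 and 1 doublets, which was taken as a failure, and in each library the top 2% by score was removed instead. Cells were integrated and clustered in Seurat 5.3.0 (R 4.3.3) with 2000 variable genes, 30 components and resolution 0.8, with 70 genes left out, among them the targets and both gene lists. A cluster was named from its markers if at least 3 were raised 2-fold and at least 2 stood among its top 10 genes. This naming rule was set after the clusters had been seen, so the classes are rebuilt and may differ from those of the study.

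UMIs were summed per library and class and divided by the class total (CPM). Intervals are exact Poisson for levels and exact conditional binomial for ratios (scipy 1.17.1). A difference was counted at an absolute log2 ratio of 0.5 with 100 UMIs. The ratio script was tested on simulated data. All 10 targets were named, as were Trp53, Mdm4 and Cdkn1a, up to 4 genes of the wider p53 list past the fold in each class, Fos, Egr1 and Junb, and the genes most similar to each target. Fosb was named after the results were seen. The targets and lists were chosen with earlier results of these data known. Alternatives were other cell thresholds, doublets kept, other resolutions, no integration, a marker gate (minimum 50 cells, set after seeing the data), TMM factors (edgeR 4.0.16), means over cells, other minimums and folds, and 2 exclusions added after seeing the data.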

Additional observations from a re-analysis of the deposited data

How the results depend on the processing

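Among the target ratios recomputed under alternatives, 1617 moved by less than their counting interval and 123 moved further, and no called ratio reversed. The count of 3 target and class pairs past the fold was 8 under the stricter cell thresholds (6 higher, 2 lower), 7 of 90 under the marker gate (5 higher, 2 lower), 6 with doublets kept (5 higher, 1 lower), 6 as means over cells (3 lower), 5 at resolution 0.3 (2 lower), 5 with a minimum of 20 UMIs or none (1 lower each), and 1 at a log2 fold of 1 (1 higher). One pair was lower with no filter, with TMM factors, in cells with a Y-linked UMI, and, added after seeing the data, without barcodes found in both libraries. Over all kept cells the count of 1 became 0 under the stricter thresholds, TMM factors, means over cells, clusters weighted to the same mix, and without clusters 9 and 18 (added after seeing the data). Phlda3 over all kept cells ranged from 0.05 to 0.58 and in dentate granule neurons from 0.45 to 0.78. In CA2 or CA3 neurons it ranged from 0.05 to 0.66 and in thalamic or other subcortical neurons from 0.30 to 1.29. The cause of these shifts was not tested beyond the reweighting. With no filter no endothelial class was named. Targets with the same highest class in both libraries numbered 7 to 10. No paired analysis was possible because each group is 1 library of pooled mice. Small classes, low-level targets such as Phlda3 in dentate granule neurons and the lack of replicate libraries limit what the ratios can show.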
